A study of Mus musculus with 7 samples.

Results

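The genes described here are 10 transcription factor genes of mesenchymal and mural cells, taken by name from 17784 genes listed in at least 1 of 7 libraries: Twist1, Twist2, Prrx1, Prrx2, Foxc1, Foxf2, Foxd1, Tbx15, Snai2 and Zeb2. The list is defined by gene name, but it was chosen with earlier results of these data known. Counts of its members are therefore descriptions and not independent evidence. Each library was 1 population of C57BL/6 mouse cells, captured as single cells on the ddSEQ droplet system, with transcripts counted at their 3′ ends by unique molecular identifiers (UMIs). MEF-3F were mouse embryonic fibroblasts given virus with Olig2, Sox10 and Nkx6.2, and MEF-2F were fibroblasts given virus with Olig2 and Sox10, both set against untransduced fibroblasts from embryo (MEF). PC-3F and PC-2F were cerebral pericytes from brain given the same 3 or 2 factors, set against untransduced pericytes (PC). Primary oligodendrocyte progenitor cells from brain (pOPC) were the cell type that the conversion aims at. The transduced cells and pOPC grew in progenitor medium, whereas MEF and PC grew in media of their own, so transduction and medium cannot be told apart in any comparison with a donor. The study asked how far the converted cells keep a memory of the donor cell, and these 10 genes are read as marks of mesenchymal origin that were kept or lost.

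As background, Twist1 and Twist2 are basic helix-loop-helix factors, and Prrx1 and Prrx2 are paired-related homeobox factors, all of embryonic mesenchyme. Foxc1, Foxf2 and Foxd1 are forkhead factors. Foxc1 and Foxf2 are needed in brain pericytes for normal vessels, and Foxd1 marks stromal progenitors of the kidney. Tbx15 is a T-box factor of limb and skin mesenchyme. Snai2 and Zeb2 are zinc finger repressors known from epithelial-mesenchymal transition. Zeb2 also acts in Schwann cells and oligodendrocytes, where it is needed for myelination.

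In the GRCm38 assembly with GENCODE annotation, Foxf2 (chr13:31625816-31631403) and Foxc1 (chr13:31806633-31812476) lie 175.2 kb apart on the plus strand. Foxd1 lies farther along the same chromosome (chr13:98354242-98359305, plus strand). Twist1 (chr12:33957671-33959829, plus strand), Tbx15 (chr3:99240381-99354259, plus strand) and Snai2 (chr16:14705852-14709385, plus strand) each have no other member on their chromosome. Twist2 (chr1:91801461-91848028, plus strand) and Prrx1 (chr1:163245119-163313710, minus strand) share a chromosome, as do Prrx2 (chr2:30834972-30881251, plus strand) and Zeb2 (chr2:44983632-45117395, minus strand). Zeb2 overlaps Zeb2os on the opposite strand, and Twist2, Prrx1, Foxf2 and Tbx15 each overlap an unnamed (Gm) gene there. Twist2 and Prrx1 also overlap Gm genes on their own strand, and Zeb2 overlaps Mir5129 on its own. Whether counting used strand is not given in the sources used here, so reads of such pairs cannot be told apart. Promoters are printed for the 2 members with UMIs in pOPC (Prrx1 and Zeb2) and for 2 that had none there and next to none after conversion (Prrx2 and Foxd1), to set their CG content side by side. Each line gives the 250 bases before the RefSeq start on GRCm38.p6, 5′ to 3′ on the strand of the gene, with CG dinucleotides in capitals. The regions are chr1:163313651-163313900 (minus), chr2:45117443-45117692 (minus), chr2:30845117-30845366 (plus) and chr13:98353995-98354244 (plus). The RefSeq starts differ from the GENCODE positions above. The Prrx2 window lies inside the GENCODE gene, and the Prrx1 and Foxd1 windows overlap the start of theirs.
Prrx1: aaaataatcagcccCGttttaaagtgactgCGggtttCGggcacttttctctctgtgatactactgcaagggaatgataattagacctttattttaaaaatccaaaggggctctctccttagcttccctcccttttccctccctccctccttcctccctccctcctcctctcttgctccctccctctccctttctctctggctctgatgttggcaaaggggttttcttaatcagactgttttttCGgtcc
Zeb2: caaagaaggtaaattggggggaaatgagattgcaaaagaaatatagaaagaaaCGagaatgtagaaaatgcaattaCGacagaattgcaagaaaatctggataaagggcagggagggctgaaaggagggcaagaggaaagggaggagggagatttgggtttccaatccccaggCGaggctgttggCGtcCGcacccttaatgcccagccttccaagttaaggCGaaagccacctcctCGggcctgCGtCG
Prrx2: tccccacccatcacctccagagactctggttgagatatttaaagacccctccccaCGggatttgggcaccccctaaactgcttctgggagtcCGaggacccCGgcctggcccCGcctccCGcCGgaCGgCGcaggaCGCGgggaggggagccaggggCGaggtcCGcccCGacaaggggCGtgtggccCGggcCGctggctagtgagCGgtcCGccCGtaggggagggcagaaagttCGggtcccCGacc
Foxd1: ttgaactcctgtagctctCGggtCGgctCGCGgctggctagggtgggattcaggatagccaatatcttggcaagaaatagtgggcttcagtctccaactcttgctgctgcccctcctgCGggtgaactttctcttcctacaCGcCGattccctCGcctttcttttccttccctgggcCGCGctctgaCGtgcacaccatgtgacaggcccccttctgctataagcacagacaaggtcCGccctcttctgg
Promoters were matched for 8 of the 10 members. The Prrx1 sequence held 4 CG dinucleotides and the first of 4 listed Zeb2 starts held 9, whereas Foxd1 held 12 and Prrx2 held 21. The other Zeb2 starts held 6, 6 and 14, so whether Zeb2 had fewer CG than Foxd1 depends on the start used. Twist1 had 18, Foxf2 had 21, Twist2 had 23 and Foxc1 had 29, against a median of 6 over 32851 promoters of the same length. Prrx1 thus had the fewest CG of the 8 matched members and was the only one of them below that median at its first listed start. The E-box CANNTG, the letters that basic helix-loop-helix factors such as Olig2 and Twist1 can bind, was in the Foxf2 and Foxd1 windows, searched on both strands. It was in 66.2% of all promoters, and its absence from the other windows says only that these letters are not in these 250 bases.

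Cells with 500 UMIs or more numbered 161 in MEF-3F, 82 in MEF-2F, 131 in MEF, 147 in PC-3F, 179 in PC-2F, 290 in PC and 134 in pOPC. MEF-2F was the shallowest library with 230218 UMIs in all, and PC the deepest with 1292770. A typical cell held the fewest UMIs in MEF-3F (median 1866) and the most in PC-2F (median 6259). No barcode was shared between libraries. Deposited values were read as coded UMI counts, an inference on which every level rests. A level is the UMIs of a gene summed over cells, scaled to counts per 1e+06 UMIs of the library (CPM). With 1 library per population no comparison could be tested, so the range beside a level, share or fold is its exact 95% interval from counting alone. It does not cover the spread between cultures, and each comparison sets 2 libraries side by side rather than 2 conditions. Fewer cells that make a transcript and less transcript per cell cannot be told apart in a summed level. A gene without a UMI could still have a level of up to 3 UMIs, which is 6.54 CPM in MEF-3F, 13.0 CPM in MEF-2F, 4.72 CPM in PC-3F and 4.74 CPM in pOPC.

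The labels were checked on defining markers. Olig2 was at 329 CPM in MEF-3F, 65.2 CPM in MEF-2F, 88.1 CPM in PC-3F, 191 CPM in PC-2F and 1657 CPM in pOPC, with no UMI in MEF or PC. Sox10, the glial and neural crest factor, was at 244 CPM in MEF-3F, 130.3 CPM in MEF-2F, 12.7 CPM in MEF, 216 CPM in PC-3F, 251 CPM in PC-2F and 591 CPM in pOPC, with no UMI in PC. These counts cannot tell virus from endogenous transcript. In PC only 3 of 9 pericyte markers had a UMI: Pdgfrb was at 343 CPM, while Rgs5, Kcnj8, Abcc9, Vtn, Higd1b and Ndufa4l2 were at 0, so the pericyte label rests on Pdgfrb here. Pdgfrb was not particular to PC, at 212.5 CPM in MEF. There 6 of the 9 pericyte markers had a UMI, with Rgs5 at 63.3 CPM. Krt19 and Msln, markers of epithelial and mesothelial cells, were at 317 and 135 CPM in PC and at 0 in PC-3F and PC-2F. They were the 2 of 6 listed markers of such cells with a UMI in PC, where Krt8, Krt18, Upk3b and Wt1 were at 0. MEF held Acta2 of smooth muscle at 9407 CPM.

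All 10 genes had UMIs in both donor libraries, and 8 of the 10 had none in pOPC. The exceptions were Prrx1 and Zeb2. Relative to pOPC, 8 of 10 members were at least 2-fold higher in MEF and 9 of 10 in PC, where 21.3% and 22.7% of all measured genes were that much higher. A gene counts as measured with at least 10 UMIs in 1 of the 2 libraries, and Foxf2 was not measured in MEF. Zeb2 was the member that was at least 2-fold lower in each donor than in pOPC, where 32.2% (MEF) and 26.7% (PC) of measured genes were that much lower. In the converted libraries 4 of 6 measured members were at least 2-fold higher than in pOPC in MEF-3F (20.7% of all measured genes), 3 of 4 in MEF-2F (18.6%), 4 of 6 in PC-3F (20.6%) and 5 of 7 in PC-2F (22.7%). A member without a UMI in pOPC is called higher whenever it reaches 10 UMIs in the other library, so these counts, those of the donors included, show which members reached 10 UMIs and are not read against the shares of all genes. Twist1 and Foxc1 were among them in all 4 converted libraries. Only Prrx1 and Zeb2 could be lower than in pOPC, and neither was 2-fold lower in a converted library. Of all measured genes, 21.8% (MEF-3F), 29.6% (MEF-2F), 22.9% (PC-3F) and 20.1% (PC-2F) were.

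**Figure D1:**
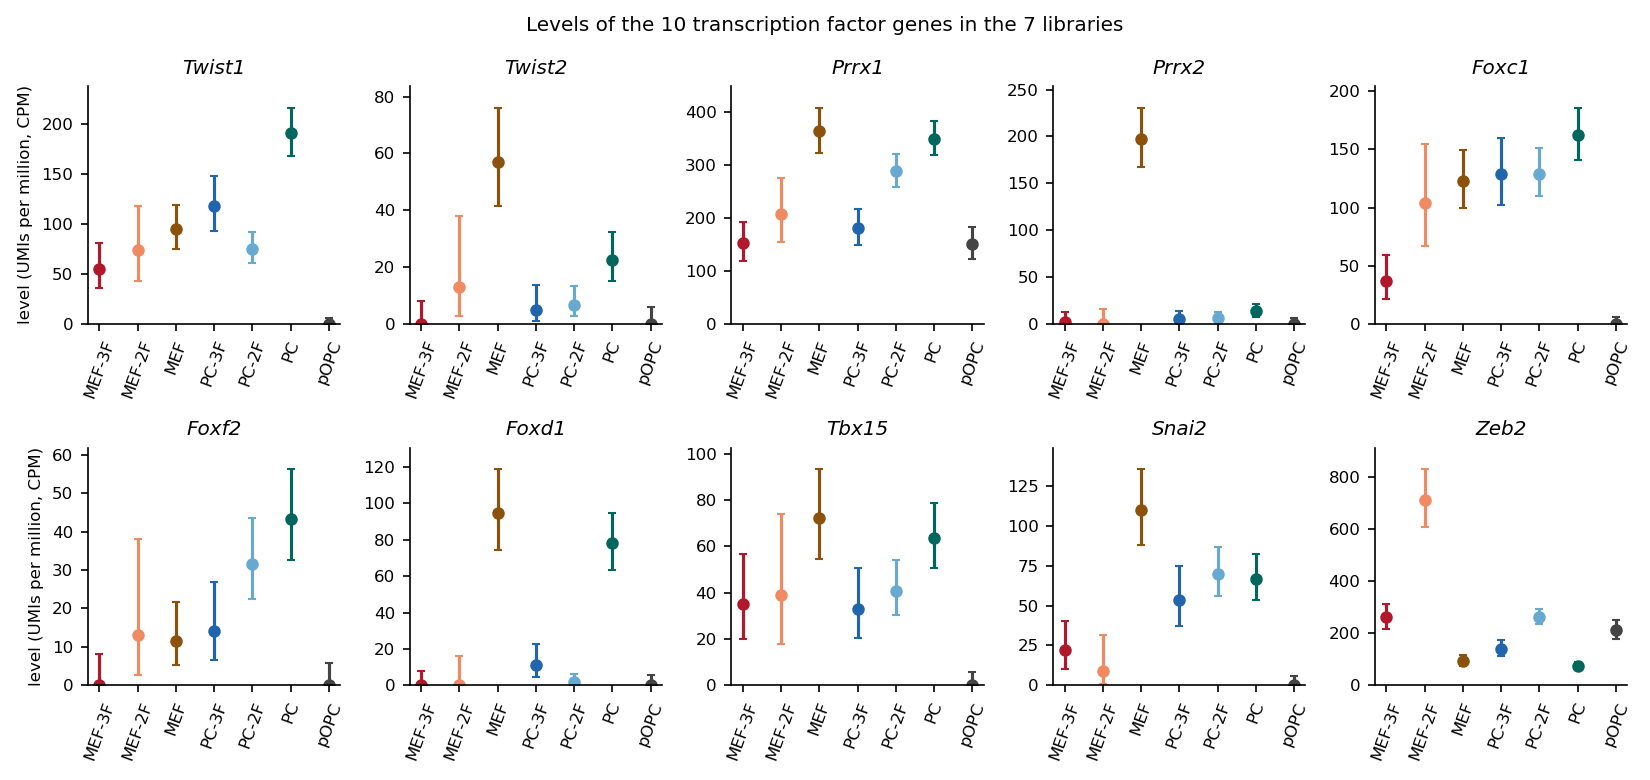
Level of each of the 10 genes in CPM (vertical axis, linear, starting at 0) in the 7 libraries (horizontal axis); points are levels and bars exact 95% Poisson intervals. All but Prrx1 and Zeb2 sit at 0 in pOPC, Prrx2 and Foxd1 sit near 0 in the converted libraries, and Zeb2 is highest in MEF-2F at 712 CPM.

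Set against the donor, the members ranged from nearly gone, through reduced or near the donor level, to higher. In MEF-3F 7 of 9 measured members were at least 2-fold lower than in MEF, where 15.1% of 9249 measured genes were that much lower. In MEF-2F 4 of 9 measured members were lower than in MEF (19.5% of 8677 measured genes). The 2 MEF comparisons share the MEF library, and the 2 PC comparisons share the PC library. In PC-3F 4 of 10 were lower than in PC (16.9% of 9808 measured genes), and in PC-2F also 4 of 10 (13.8% of 10325). Twist2, Prrx2 and Foxd1 were on the lower side in all 4 comparisons. Each had fewer than 10 UMIs in every converted library and so was measured through the donor alone. The minimum leans such genes towards a lower call. The counts of lower members are thus descriptions and are not read as a result beside the shares of all genes. The median log2 ratio was -1.69 in MEF-3F over MEF and -0.82 in MEF-2F over MEF across the 9 measured members (-1.98 and -0.81 with Foxf2 added), and -0.93 in PC-3F over PC and -0.54 in PC-2F over PC across all 10. Over all measured genes these medians were 0.20, 0.06, 0.01 and 0.07.

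Twist1 and Twist2 differed in how much was left. Twist1 was at 54.5 CPM (35.3 to 80.5) in MEF-3F and 73.8 CPM (43.0 to 118) in MEF-2F, against 94.9 CPM (74.6 to 119) in MEF. It was at 118 CPM (92.8 to 148) in PC-3F and 75.01 CPM (60.3 to 92.2) in PC-2F, compared with 191 CPM (168 to 216) in PC, with no UMI in pOPC. The PC libraries did not overlap in their intervals, while MEF-2F and MEF did. Twist1 was 2.55-fold lower in PC-2F than in PC (1.99 to 3.28) and 1.62-fold lower in PC-3F than in PC (1.25 to 2.13). It was 1.74-fold lower in MEF-3F than in MEF (1.09 to 2.86). Twist1 was thus present in every library except pOPC. Twist2 had no UMI in MEF-3F and 3 UMIs (13.0 CPM) in MEF-2F, against 45 UMIs (56.9 CPM) in MEF. It had 3 UMIs (4.72 CPM) in PC-3F and 8 UMIs (6.67 CPM) in PC-2F, against 29 UMIs (22.4 CPM) in PC. All 4 converted libraries were low in Twist2. With the 0 of MEF-3F set at 3 UMIs, its level there was at least 8.70-fold lower than in MEF, a bound at that floor and not an interval.

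Prrx1 and Prrx2 parted further. Prrx1 was at 153 CPM (119 to 193) in MEF-3F and 209 CPM (154 to 276) in MEF-2F, against 364 CPM (323 to 409) in MEF. It was at 181 CPM (149 to 217) in PC-3F and 289 CPM (260 to 321) in PC-2F, against 350.4 CPM (319 to 384) in PC, and at 150.2 CPM (122 to 184) in pOPC. The donors were alike and high, and MEF-3F, MEF-2F, PC-3F and pOPC had overlapping intervals at the low end. Prrx1 was 2.39-fold lower in MEF-3F than in MEF (1.83 to 3.15) and 1.94-fold lower in PC-3F than in PC (1.58 to 2.40). It was 1.02-fold of pOPC in MEF-3F (0.74 to 1.399), 1.21-fold in PC-3F (0.91 to 1.599), 1.39-fold in MEF-2F (0.96 to 1.99) and 1.93-fold in PC-2F (1.53 to 2.44). Of the converted libraries, PC-2F had an interval that excluded equality with pOPC. Prrx2 had 1 UMI (2.18 CPM) in MEF-3F and none in MEF-2F, against 156 UMIs (197 CPM) in MEF. It had 3 UMIs in PC-3F and 7 in PC-2F, against 17 UMIs (13.2 CPM) in PC, and none in pOPC. Prrx2 was therefore a gene of MEF among these libraries, 15.01-fold higher in MEF than in PC (9.08 to 26.4), and at least 15.1-fold lower in MEF-2F than in MEF with the 0 of MEF-2F set at 3 UMIs. In MEF-3F the ratio rested on 1 UMI, 0.011-fold of MEF with an interval from 0.00028 to 0.062. In the PC libraries the intervals of the Prrx2 ratio included 1, at 0.36-fold (0.07 to 1.24) for PC-3F over PC and 0.44-fold (0.16 to 1.13) for PC-2F over PC.

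Among the forkhead genes, Foxc1 was within 2-fold of its donor in 3 of 4 converted libraries and Foxd1 in none. Foxc1 was at 37.1 CPM (21.6 to 59.4) in MEF-3F and 104 CPM (66.8 to 155) in MEF-2F, against 123 CPM (99.5 to 150) in MEF. It was at 129 CPM (103 to 160.2) in PC-3F and 129 CPM (110 to 151) in PC-2F, against 162 CPM (141 to 186) in PC, with no UMI in pOPC. MEF-3F alone lay below the other donor and converted libraries, with an interval that did not reach theirs. Foxc1 was 3.31-fold lower in MEF-3F than in MEF (1.96 to 5.91) and 1.26-fold lower in each of PC-3F (0.97 to 1.65) and PC-2F (1.02 to 1.56) than in PC. MEF-2F joins 2 blocks of barcodes, and they differed: the first block of 65 cells had 66.2 CPM (34.2 to 116) and the second block of 17 cells had 245 CPM (127 to 428). PC also joins 2 blocks. Its first block of 39 cells had 93.9 CPM (52.5 to 155) and its second block of 251 cells had 172 CPM (149 to 198). The PC-3F and PC-2F levels lay above the first PC block and below the second, with overlapping intervals. Foxd1 had no UMI in MEF-3F or MEF-2F, against 75 UMIs (94.9 CPM) in MEF. It had 7 UMIs (11.02 CPM) in PC-3F and 2 UMIs (1.67 CPM) in PC-2F, against 101 UMIs (78.1 CPM) in PC. With 0 set at 3 UMIs, the Foxd1 level of MEF-3F was lower than that of MEF by at least 14.5-fold, and that of MEF-2F by at least 7.28-fold. It was 7.09-fold lower in PC-3F than in PC (3.32 to 18.1), and in PC-2F its ratio to PC was 0.021 (0.0025 to 0.079). Foxd1 thus stood near 0 in the 4 converted libraries and had like levels in the 2 donors. Foxf2 had 9 UMIs (14.2 CPM, 6.48 to 26.9) in PC-3F and 38 UMIs (31.7 CPM, 22.4 to 43.5) in PC-2F, against 56 UMIs (43.3 CPM, 32.7 to 56.3) in PC. It had no UMI in MEF-3F and 3 in MEF-2F, against 9 in MEF, too few to be measured. Foxf2 was 3.06-fold lower in PC-3F than in PC (1.501 to 7.03), and PC-2F overlapped both.

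Tbx15 had similar ratios to the donor in the 4 conversions. It was at 34.9 CPM (19.9 to 56.7) in MEF-3F and 39.1 CPM (17.9 to 74.2) in MEF-2F, against 72.1 CPM (54.6 to 93.4) in MEF. It was at 33.1 CPM (20.5 to 50.5) in PC-3F and 40.8 CPM (30.2 to 54.0) in PC-2F, against 63.4 CPM (50.5 to 78.7) in PC, with no UMI in pOPC. The 4 converted libraries overlapped one another, and so did the 2 donors. The ratio to the donor was 0.48 (0.26 to 0.85) in MEF-3F, 0.54 (0.24 to 1.103) in MEF-2F, 0.52 (0.31 to 0.85) in PC-3F and 0.64 (0.44 to 0.93) in PC-2F.

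Snai2 differed by the origin of the cells. It was at 21.8 CPM (10.5 to 40.1) in MEF-3F and 8.69 CPM (1.05 to 31.4) in MEF-2F, against 110.0 CPM (88.1 to 136) in MEF. It was at 53.5 CPM (37.1 to 74.8) in PC-3F and 70.01 CPM (55.8 to 86.7) in PC-2F, against 66.5 CPM (53.2 to 82.2) in PC, with no UMI in pOPC. Both converted MEF libraries lay below MEF, whereas both converted PC libraries overlapped PC. Snai2 was 5.05-fold lower in MEF-3F than in MEF (2.62 to 10.9) and 12.7-fold lower in MEF-2F than in MEF (3.40 to 106). Its ratio to PC was 0.80 in PC-3F (0.52 to 1.21) and 1.05 in PC-2F (0.77 to 1.44).

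Zeb2 ran the other way. It was at 262 CPM (217 to 313) in MEF-3F and 712 CPM (608 to 830.1) in MEF-2F, against 93.6 CPM (73.5 to 118) in MEF. It was at 140.1 CPM (113 to 172) in PC-3F and 263 CPM (234 to 293) in PC-2F, against 74.3 CPM (60.2 to 90.7) in PC, and at 212 CPM (178 to 251) in pOPC. Every converted library lay above its donor, and only PC-3F over PC stayed under 2-fold. Zeb2 was 2.80-fold higher in MEF-3F than in MEF (2.08 to 3.79) and 7.61-fold higher in MEF-2F than in MEF (5.75 to 10.2), where 23.5% and 19.4% of measured genes were at least 2-fold higher. It was 1.89-fold of PC in PC-3F (1.397 to 2.54) and 3.54-fold of PC in PC-2F (2.81 to 4.49), where 18.6% and 20% of measured genes were at least 2-fold higher. Against pOPC, MEF-2F stood above, at 3.36-fold (2.66 to 4.26), MEF-3F overlapped at 1.24-fold (0.96 to 1.59), PC-2F stood slightly above at 1.24-fold (1.01 to 1.53), and PC-3F stood below at 0.66-fold (0.50 to 0.87).

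**Figure D2:**
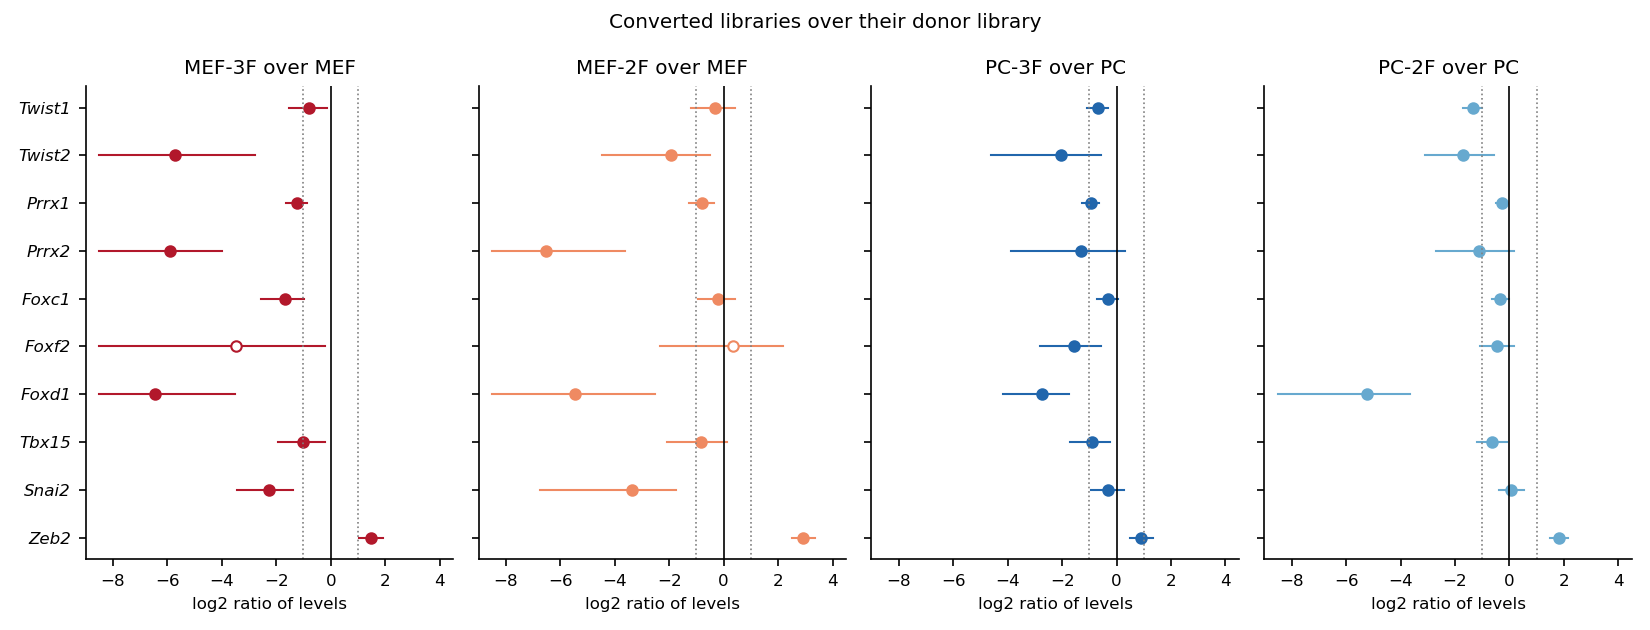
Log2 ratio of the level in each converted library to its donor for the 10 genes (0.5 UMIs added per library); lines are exact 95% intervals, drawn to the left edge of the plot where the converted library had 0 UMIs or the lower end lies beyond it, open points are genes under 10 UMIs in both libraries, and dotted lines mark 2-fold. Twist2, Prrx2 and Foxd1 lie left of the 2-fold line in all 4 panels and Zeb2 lies right of 0 in all 4.

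Between MEF-3F and MEF-2F, 6 members were measured and 3 of them were called. Snai2 was higher (15.1% of measured genes were) and Foxc1 and Zeb2 lower (8.03% of measured genes). Snai2 rested on 10 UMIs against 2, a ratio of 2.51 with an interval from 0.53 to 23.6. Foxc1 was 0.36-fold (0.18 to 0.69) and Zeb2 0.37-fold (0.29 to 0.47) in MEF-3F over MEF-2F. Between PC-3F and PC-2F, 7 members were measured and Foxf2 was the 1 member called, lower in PC-3F at 0.45-fold (0.19 to 0.94), where 9.02% of measured genes were lower. No member was 2-fold higher in PC-3F than in PC-2F (5.73% of measured genes were). Prrx1 and Zeb2 were 0.63-fold (0.50 to 0.77) and 0.53-fold (0.42 to 0.68) in PC-3F over PC-2F, and Twist1 1.57-fold (1.14 to 2.16). Foxc1 was at 0.999-fold (0.75 to 1.31).

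Between the donors 4 of 10 members were called, with shares of all genes not far from this. Twist2 (2.54-fold, 1.56 to 4.197) and Prrx2 were higher in MEF than in PC, where 16.5% of measured genes were. Twist1 (0.50-fold, 0.38 to 0.65) and Foxf2 (0.26-fold, 0.11 to 0.54) were lower, as 21.2% of measured genes were. Twist2 and Prrx2 were not measured in either pair of converted libraries, so their difference between the donors could not be followed there. Between MEF-3F and PC-3F, with 6 members measured, no member was called higher (16.4% of measured genes were), and Twist1 (0.46-fold, 0.28 to 0.73), Foxc1 (0.29-fold, 0.16 to 0.49) and Snai2 (0.41-fold, 0.18 to 0.84) were lower (15.3%). Between MEF-2F and PC-2F, with 7 members measured, Zeb2 was higher at 2.71-fold (2.23 to 3.29; 13.3% of measured genes were higher), and Snai2 at 0.12-fold (0.01 to 0.46) and Foxf2 at 0.41-fold (0.08 to 1.30) were lower (20.6%). Snai2 was on the lower side in both of these pairs, although it was 1.65-fold higher in MEF than in PC (1.21 to 2.26).

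In single cells the marks were sparse. Each cell was thinned to 1000 UMIs, which left out 39 shallower cells of MEF-3F, 7 of MEF-2F, 2 of MEF, 1 of PC-3F, 1 of PC-2F, 23 of PC and 18 of pOPC. At least 1 of the 8 genes without a UMI in pOPC was seen in 13.1% of MEF-3F cells (7.69 to 20.4) and 18.7% of MEF-2F cells (10.6 to 29.3), against 45.0% of MEF cells (36.2 to 54.0). It was seen in 31.5% of PC-3F cells (24.1 to 39.7) and 29.8% of PC-2F cells (23.2 to 37.1), against 47.6% of PC cells (41.4 to 53.7). None of 116 pOPC cells held one, which follows from the choice of the 8 genes. Converted PC cells lay between their donor and converted MEF cells. The intervals of PC-3F and MEF-3F did not overlap, while those of PC-2F and MEF-2F did. Without thinning the shares were 29.2% in MEF-3F, 37.8% in MEF-2F, 81.7% in MEF, 66.0% in PC-3F, 78.2% in PC-2F, 81.7% in PC and 0% in pOPC.

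Prrx1 and Zeb2 were seen in pOPC cells too. At 1000 UMIs Prrx1 was seen in 14.8% of MEF-3F, 14.7% of MEF-2F, 24.8% of MEF, 13.0% of PC-3F, 25.8% of PC-2F, 24.7% of PC and 9.48% of pOPC cells. Zeb2 was seen in 23.8% of MEF-3F, 48% of MEF-2F, 12.4% of MEF, 13.7% of PC-3F, 25.8% of PC-2F, 9.74% of PC and 22.4% of pOPC cells. The MEF-2F share of Zeb2 had an interval (36.3 to 59.9) above those of all other libraries. Unthinned, up to 5 of the 10 genes were seen in 1 cell in MEF-3F and up to 6 in MEF-2F, against 10 in MEF. The most was 7 in PC-3F and 8 in PC-2F, against 8 in PC and 2 in pOPC.

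**Figure D3:**
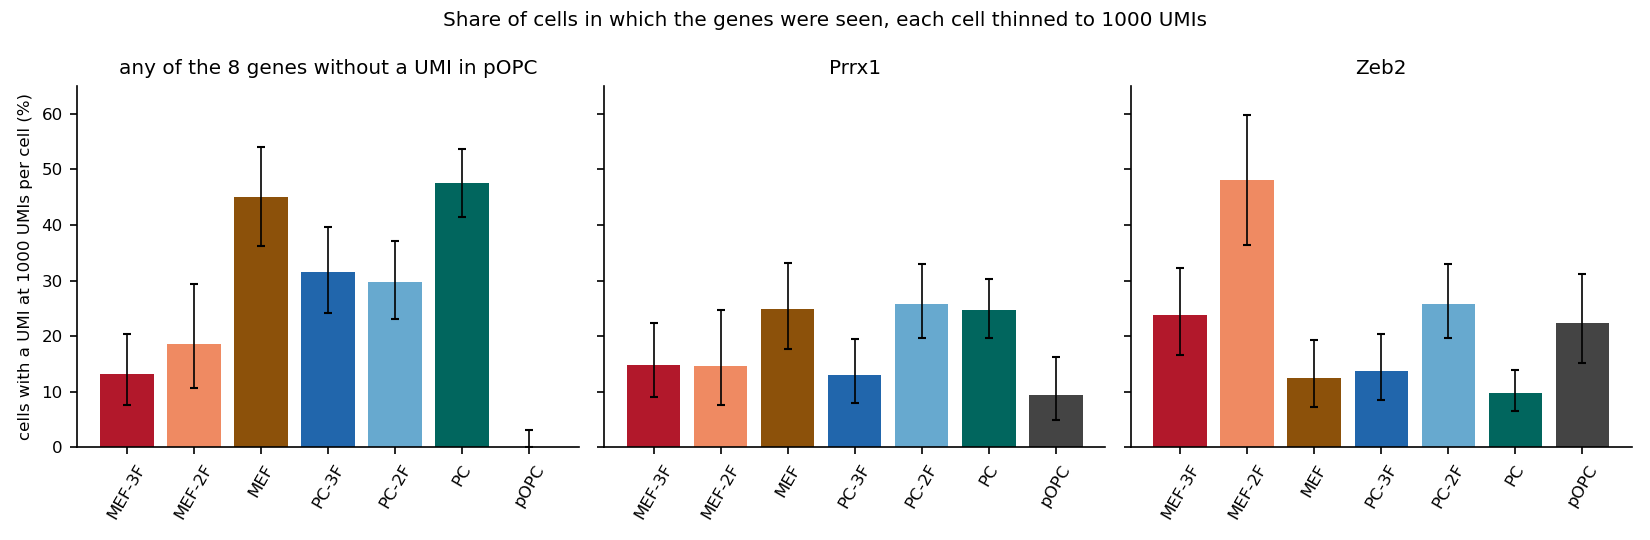
Share of cells with at least 1 UMI (vertical axis, percent) in the 7 libraries, for any of the 8 genes without a UMI in pOPC (left), Prrx1 (middle) and Zeb2 (right), with each cell thinned to 1000 UMIs; bars are shares and lines exact 95% binomial intervals. The left panel runs from 13.1% in MEF-3F to 47.6% in PC with 0% in pOPC, and the right panel peaks at 48% in MEF-2F.

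Within a converted library the marks were unevenly spread over cells. Cells of all libraries were clustered with the 10 genes left out, and the 11 clusters are called by number and leading genes. Of 179 PC-2F cells, 33 fell into cluster 7, led by Mmp3, Dcn, Ccl7, Ccl2 and Lum, and 146 into cluster 2, led by Lcn2, Serpina3n and Enpp2. The 8 genes summed to 685 CPM (580.3 to 804) in the PC-2F cells of cluster 7 and to 288 CPM (255 to 324) in those of cluster 2. Foxc1 was at 331 CPM (260 to 417) in cluster 7 and 83.7 CPM (66.6 to 104) in cluster 2. The 7 Prrx2 UMIs of PC-2F all came from cluster 7. Cluster 7 of PC-2F thus had a summed level like that of the PC clusters. In the same cells Pdgfrb was at 449 CPM, against 1.02 CPM in cluster 2, and Sox10 at 9.08 CPM, against 305 CPM in cluster 2. Dcn, a matrix proteoglycan, was at 1039 CPM in these cells with no UMI in the PC clusters, and Col1a1 at 1371 CPM, against 568 CPM (cluster 0) and 696 CPM (cluster 5) in PC. Foxd1, by contrast, had no UMI in cluster 7, neither in PC-2F nor in PC-3F. Zeb2 was at 231 CPM (172 to 304) in cluster 7 of PC-2F and 270 CPM (238 to 304) in cluster 2, both above the PC clusters at 92.1 CPM (cluster 0) and 32.8 CPM (cluster 5).

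PC-3F showed the same split. Its 25 cells of cluster 7 had 646 CPM (515 to 800.1) of the 8 genes, against 259 CPM (205 to 324) in its 80 cells of cluster 6 and 322 CPM (239 to 423) in its 33 cells of cluster 9. Twist1 was at 246 CPM (168 to 348) in cluster 7, 84.2 CPM in cluster 6 and 69.3 CPM in cluster 9, and Prrx1 at 400.0 CPM (299 to 525), 138 CPM and 120 CPM. Sox10 was at 7.69 CPM in cluster 7, 259 CPM in cluster 6 and 252 CPM in cluster 9. Cluster 7 made up 17.0% of PC-3F cells and 18.4% of PC-2F cells, and in both it had a high summed level and little Sox10. Not every member was higher there. Tbx15 was at 36.3 CPM in cluster 7 and 41.9 CPM in cluster 2 of PC-2F, and at 38.5 CPM in cluster 7, 20.2 CPM in cluster 6 and 37.8 CPM in cluster 9 of PC-3F. Snai2 was at 86.2 CPM (51.9 to 135) in cluster 7 and 66.4 CPM (51.2 to 84.6) in cluster 2 of PC-2F, and at 61.5 CPM in cluster 7, 43.8 CPM in cluster 6 and 69.3 CPM in cluster 9 of PC-3F. Twist2 had no UMI in cluster 7 of PC-3F. Without the cells of cluster 7, a choice made after the clusters were seen, 6 of 10 members were at least 2-fold lower in PC-3F than in PC, with Twist1 and Prrx1 added, and still 4 of 10 in PC-2F. On the same cells 19.5% (PC-3F) and 15.9% (PC-2F) of measured genes were that much lower.

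In MEF-2F the split ran between cluster 8 (42 cells), whose leading genes include the Schwann and neural crest genes Ednrb, Ngfr and Foxd3, and cluster 1 (40 cells), led by the cartilage genes Col2a1 and Col11a2. Zeb2 was at 1056 CPM (880.3 to 1256) in cluster 8 and 336 CPM (237 to 464) in cluster 1. Prrx1 was at 49.9 CPM (18.3 to 109) in cluster 8 and 382 CPM (275 to 516) in cluster 1, and the 8 genes summed to 116 CPM (63.6 to 195) in cluster 8 and 400.2 CPM (291 to 537) in cluster 1. Sox10 was at 249 CPM in cluster 8, with no UMI in cluster 1. Of the 164 Zeb2 UMIs of MEF-2F, 127 came from cluster 8, and of its 48 Prrx1 UMIs, 42 came from cluster 1. MEF-3F had 15 cells in cluster 8, with Zeb2 at 576 CPM (386 to 827), and 145 in cluster 1, with Zeb2 at 223 CPM (180 to 274). In MEF-3F Prrx1 was at 99.3 CPM (32.2 to 232) in cluster 8 and 159 CPM (123 to 203) in cluster 1. The 8 genes summed to 79.4 CPM (21.6 to 203) in cluster 8 and 159 CPM (123 to 203) in cluster 1. Both values were lower in cluster 8, with overlapping intervals. They rest there on 5 and 4 UMIs, too few to say whether these genes parted as in MEF-2F. Sox10 in MEF-3F was at 159 CPM (68.6 to 313) in cluster 8 and 255 CPM (208 to 309) in cluster 1. Without cluster 8, a choice also made after the clusters were seen, Zeb2 was higher than in MEF, by 1.25 on the log2 scale in MEF-3F and 1.86 in MEF-2F, and 7 and 3 members were at least 2-fold lower. On the same cells 22.8% (MEF-3F) and 19.2% (MEF-2F) of measured genes were 2-fold higher, and 15.6% and 23.9% were 2-fold lower. Marker levels of Schwann and neural crest cells, a list that holds the virus-supplied Sox10, summed to 1945 CPM in MEF-3F and 5078 CPM in MEF-2F, against 86.0 CPM in MEF. In the pericyte conversions they summed to 2543 CPM in PC-3F and 1764 CPM in PC-2F, against 13.9 CPM in PC. All 7 of those markers had a UMI in MEF-3F and 6 of 7 in MEF-2F (Cdh19 at 0), against 5 of 7 in MEF, where Cdh19 was also at 0. Whether these cells were made in conversion or present in the culture was not tested.

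PC itself was split between cluster 0 (187 cells) and cluster 5 (92 cells). Krt19 and Msln led cluster 5, and S100a4, Krt20, Tnfaip2 and Lyz2 led cluster 0, so both had a keratin among their leading genes. Prrx1 was at 117 CPM (85.0 to 158) in cluster 5 and 448 CPM (405 to 493) in cluster 0, and Foxc1 at 287 CPM (235 to 347) in cluster 5 and 115 CPM (94.2 to 139) in cluster 0. The 8 genes summed to 680.0 CPM (598 to 769.9) in cluster 5 and 629 CPM (578 to 682) in cluster 0. The PC level of each gene is thus a mixture of cells, and how the mixture bears on the ratios to PC was not tested.

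**Figure D4:**
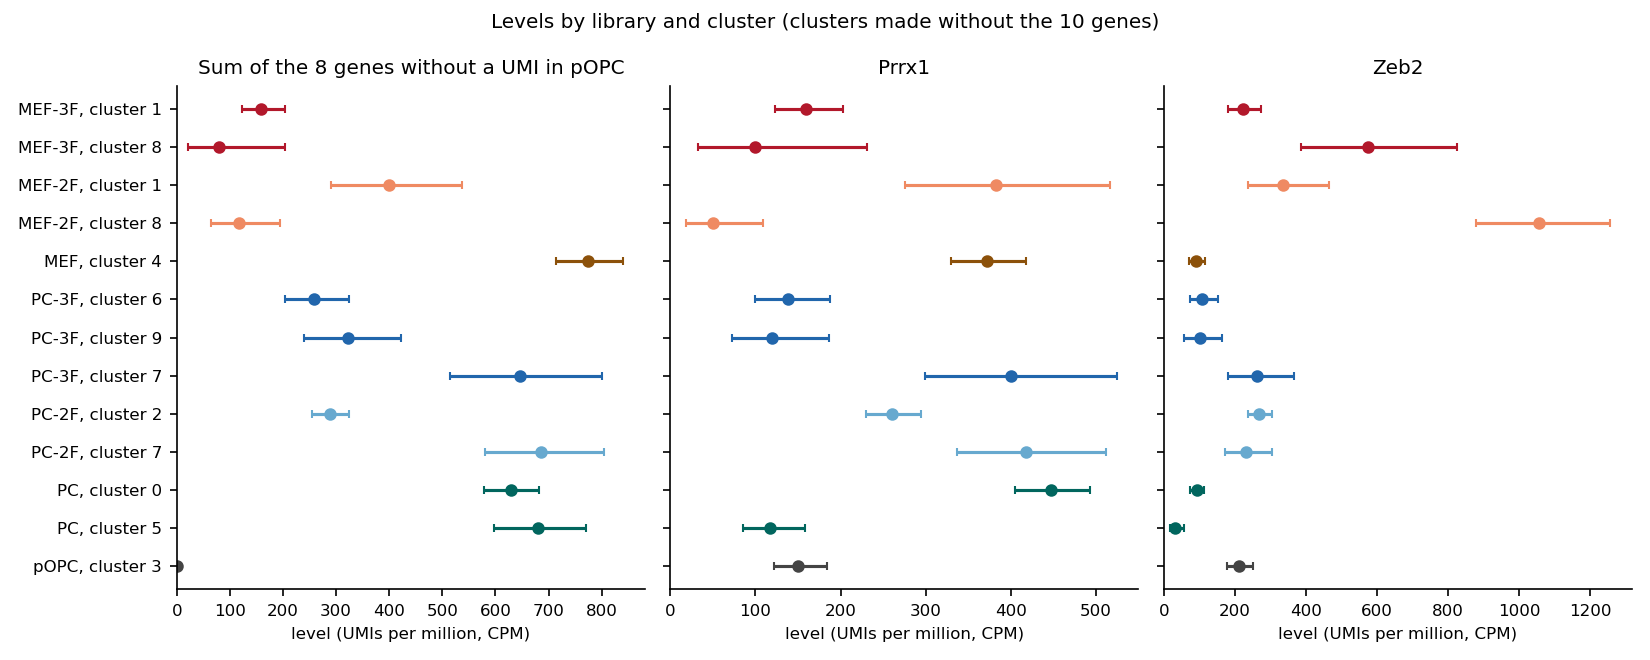
Levels in CPM (horizontal axes, starting at 0) by library and cluster, for the sum of the 8 genes without a UMI in pOPC (left), Prrx1 (middle) and Zeb2 (right); points are levels over the cells of that library in that cluster and bars exact 95% Poisson intervals. Cluster 7 of PC-3F and PC-2F sits at 646 and 685 CPM on the left, beside the PC clusters, and cluster 8 of MEF-2F sits at 1056 CPM on the right.

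Cells with and without a UMI of Olig2 or Sox10 were also set side by side in each converted library. In MEF-2F the 8 genes summed to 114 CPM in the 27 cells with a UMI and 336 CPM in the 55 without, a ratio of 0.34 (0.15 to 0.68). In PC-2F they summed to 302 CPM in 122 cells with and 513 CPM in 57 without, a ratio of 0.59 (0.48 to 0.72). In PC-3F the ratio was 0.83 (0.63 to 1.08) and in MEF-3F 0.99 (0.59 to 1.73), and both intervals include 1. The marks were thus lower in cells with a factor UMI in both 2-factor libraries. Foxc1 was at 92.3 CPM in PC-2F cells with and 225 CPM in those without (0.41-fold, 0.30 to 0.57), and Prrx1 in MEF-2F at 45.8 and 308 CPM (0.15-fold, 0.04 to 0.41). Tbx15 and Snai2 in PC-2F had intervals that include 1, at 1.97-fold (0.91 to 4.87) and 1.02-fold (0.62 to 1.73). Cells with a UMI were deeper, with a median of 2684 and 1262 UMIs with and without in MEF-3F and 6552 and 5764 in PC-2F, and whether depth has a part in this split was not tested.

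Related genes were described from lists of families and partners. Of the other forkhead genes, 4 of 5 measured were at least 2-fold lower in MEF-3F than in MEF, 4 of 5 in MEF-2F, 2 of 4 in PC-3F and 2 of 5 in PC-2F, with 1 higher in each of PC-3F and PC-2F. Of all measured genes, 15.1% (MEF-3F), 19.5% (MEF-2F), 16.9% (PC-3F) and 13.8% (PC-2F) were that much lower. In PC-3F and PC-2F, 18.6% and 20% of them were that much higher. The median log2 ratio of these measured forkhead genes was -2.18 in MEF-3F, -2.91 in MEF-2F, -1.55 in PC-3F and 0.58 in PC-2F. Foxc2, the close relative of Foxc1, had no UMI in MEF-2F, against 51.9 CPM in MEF. It was at 9.44 CPM in PC-3F and 8.33 CPM in PC-2F, against 85.9 CPM in PC, a ratio of 0.11 (0.04 to 0.25) and 0.10 (0.05 to 0.19). Foxc2 and Foxc1 of the same family thus had unlike ratios in the PC conversions. Foxp1 was at 50.2 CPM in MEF-3F, against 377 CPM in MEF, and Foxs1, a forkhead gene of mural cells, had no UMI in PC-3F, against 49.5 CPM in PC. Of the other repressors of epithelial genes, Snai1 was lower in all 4 conversions, at 0.12-fold (0.01 to 0.49) in MEF-3F, 0.25-fold (0.03 to 0.97) in MEF-2F, 0.23-fold (0.08 to 0.52) in PC-3F and 0.34-fold (0.18 to 0.59) in PC-2F. Zeb1, the paralog of Zeb2, was called higher in MEF-3F, at 2.35-fold of MEF (1.59 to 3.50), and was at 1.61-fold (0.92 to 2.72) in MEF-2F, with overlapping intervals. Of a list of 16 epithelial genes, such as Cdh1 and Epcam, 6 had a row in the files and none reached 10 UMIs in these comparisons. Krt19 and Msln, which are not on that list, had their UMIs in PC as given above.

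Partners and stromal regulators were set against the donors in the same way. Tcf4 and Tcf12, which pair with Twist and Olig factors, were 5.01-fold (4.14 to 6.08) and 3.24-fold (2.45 to 4.29) higher in MEF-3F than in MEF. They were 2.99-fold (2.34 to 3.82) and 2.04-fold (1.39 to 2.94) higher in MEF-2F than in MEF. Of 4 measured partners in each MEF conversion, these 2 were higher, Scx was lower and Tcf3 was within 2-fold. Scx was at 0.34-fold of MEF (0.15 to 0.67) in MEF-3F and 0.20-fold (0.04 to 0.62) in MEF-2F. In PC-3F and PC-2F none of 3 measured partners was 2-fold apart from PC. Of the homeobox genes none of 8 measured was higher and 3 were lower in MEF-3F, with Msx2 at 0 against 41.7 CPM in MEF, and 1 was higher and 3 lower of 8 in MEF-2F. In PC-3F 1 of 4 and in PC-2F 1 of 5 was lower, Meis2 in both, at 0.45-fold of PC (0.29 to 0.68 in PC-3F), and Meis1 was higher in PC-2F at 5.39-fold of PC (1.52 to 29.0). Of the other T-box genes Tbx2 was lower in PC-3F and PC-2F, at 0.22-fold (0.10 to 0.44) and 0.12-fold (0.05 to 0.23) of PC, while Tbx3 was higher in PC-2F at 5.93-fold of PC (1.29 to 55.0). Among other stromal factors 3 were higher and 4 lower of 18 measured in MEF-3F, 5 and 7 of 18 in MEF-2F, 0 and 6 of 12 in PC-3F and 3 and 6 of 15 in PC-2F. The shares of all measured genes beside these counts are 23.5% higher and 15.1% lower in MEF-3F, 19.4% and 19.5% in MEF-2F, 18.6% and 16.9% in PC-3F, and 20% and 13.8% in PC-2F, and the MEF-3F counts lie near them. Hic1, a repressor that marks quiescent mesenchymal progenitors, was near 0 in the converted MEF libraries (4.36 CPM in MEF-3F and no UMI in MEF-2F, against 83.5 CPM in MEF). It was at 12.6 CPM in PC-3F, against 67.3 CPM in PC.

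The glial factor list moved the other way. It holds Olig2 and Sox10, which the virus supplied, so its direction is not independent evidence. Of its measured members 11 of 11 were called higher in MEF-3F, 6 of 6 in MEF-2F, 8 of 9 in PC-3F and 9 of 10 in PC-2F. Of all measured genes 23.5%, 19.4%, 18.6% and 20% were called higher in these libraries. Sox2 was at 331 CPM in MEF-3F and 191 CPM in MEF-2F with no UMI in MEF, and Olig1 at 159 CPM in PC-3F and 363 CPM in PC-2F with no UMI in PC. Of 8 adhesion and matrix genes of mesenchyme, 1 was higher and 3 lower in MEF-3F, 4 and 2 in MEF-2F, 4 and 2 in PC-3F and 3 and 2 in PC-2F. The shares of all measured genes that were higher are those given for the glial list. The shares lower were 15.1% in MEF-3F, 19.5% in MEF-2F, 16.9% in PC-3F and 13.8% in PC-2F. With 8 genes, these counts are not read as a result about the list. Fn1 was at 6202 CPM in PC-3F and 6614 CPM in PC-2F, against 676 CPM in PC, and Postn at 1583 and 909 CPM, against 10.1 CPM in PC. In the MEF conversions Cdh11, the mesenchymal cadherin, was at 61.1 CPM in MEF-3F and 95.6 CPM in MEF-2F, against 717 CPM in MEF.

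Across the 7 libraries the members fell into patterns, described by Pearson correlation of log2(CPM + 10) between summed levels that share library and depth. Twist1 and Foxc1 were most alike (r = 0.96, n = 7 libraries), followed by Twist1 and Tbx15 (r = 0.94) and Foxc1 and Tbx15 (r = 0.92). Prrx2 and Foxd1 were at r = 0.82, and Zeb2 was negatively related to each of the other 9, from r = -0.21 with Foxc1 to r = -0.82 with Foxd1. Of other genes at 20 CPM or more in a library, those most like Foxd1 were Samd5 (r = 0.996), Figf (r = 0.994) and Hic1 (r = 0.984). Those most like Prrx2 were Lrrc17, Pth1r and Msx2 (r = 0.994, 0.989 and 0.989). For Twist1 they included Aebp1 and Kdelr1, for Foxc1 they were Atxn7l3, Rnf6 and Sec24d, and for Tbx15 Lgals1, Cpt1a and Napa, all at r of 0.988 to 0.996. For Prrx1 they were Anxa3, Ehbp1l1 and Pear1 and for Twist2 Mdm2, Fblim1 and Ptplad2. For Foxf2 they were Raly, Prkaa1 and Fgf7, for Snai2 they included Obsl1, and for Zeb2 they were Lrp12, Cnot2 and Pik3c2b.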

How the data were processed

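The data are 7 single-cell 3′ libraries, 1 per population. Per the submitters' processing notes, mm10 was the genome and the tools were STAR 2.5.3a, featureCounts 1.6.1, UMI-tools 0.5.3 and bcl2fastq 2.19.1.403, with no order given. The values the authors deposited are of a kind no label names (unit: other): they were read as the place of a UMI count in the text-sorted list of occurring counts, separately for each block of barcodes (PC, MEF-2F and MEF-3F have 2 blocks, joined here). Counts were recovered by aligning codes to text-sorted whole numbers under a smooth frequency model. Simulated codes were decoded exactly in 99.87% to 99.99% of entries, and 100% of the members' entries had a count with a probability above 0.99. Each file lists only genes seen in at least 1 barcode, so a gene with no row was read as 0 UMIs.

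Barcodes with 500 UMIs or more and under 20% mitochondrial UMIs were kept, 1124 of 1140. Doublets were not called. Log2 ratios use 0.5 UMIs added per library, and printed folds are plain ratios of levels. A gene was called at 2-fold with 10 UMIs or more in 1 of the 2 libraries. Cells were clustered (Leiden, resolution 1) on 2000 variable genes without the members. Named were all members, up to 3 measured genes of each list with the largest ratio to the donor, and 3 like genes per member, of which a few genes are not reported here. The members and lists were chosen with earlier results of these data known. The analysis ran in Python 3.11.15 with NumPy 2.4.6, SciPy 1.17.1, leidenalg 0.10.2 and GENCODE release M21.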

Additional observations from a re-analysis of the deposited data

How the results depend on the processing

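No paired analysis was possible because each population was 1 library. For the same reason no replicate could be left out, and the limits on every value are counting error and the reading of the deposited values. Of 1442 ratios of single genes under the alternatives, 1329 kept their call, 37 of them with the other sign inside the 2-fold limits (Foxc1 in PC-3F and PC-2F over PC among them). A further 71 kept direction but fell under the threshold, 40 passed it, and 2 passed it with the other sign (Foxc1 in MEF-2F over MEF and Tbx15 in MEF-3F over MEF-2F). No called value changed sign. With no minimum (116 ratios) or a minimum of 30 UMIs (98 ratios), the ratios and the fold limit stay as they are. Every call there was thus kept by design. At 4-fold the ratios also stay, so no sign could change. Genes under the minimum of a setting were left out of its ratios and not counted as lost. Trimmed mean scaling, computed from summed counts, shifted the median of all genes by -0.30 (MEF-3F over MEF), -0.29 (MEF-2F over MEF), -0.14 (PC-3F over PC) and -0.11 (PC-2F over PC) on the log2 scale, and gave 8, 6, 6 and 4 members lower. Depth limits low members most in MEF-2F.

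Counts of members moved as follows. With deposited values taken as counts, PC-3F over PC had 8 lower, and MEF-3F over MEF-2F, PC-3F over PC-2F and MEF-3F over PC-3F had 5 called each. With presence only, MEF-3F over MEF-2F had 0 called and MEF over PC 2. With the mean over cells, MEF-3F over PC-3F had 1 called. With 2 UMIs added, PC-3F over PC-2F had 0 called. With no minimum, 7 (MEF-2F), 8 (PC-3F) and 8 (PC-2F) members were higher than in pOPC, and 5 (MEF-3F over MEF-2F), 2 (PC-3F over PC-2F), 6 (MEF-3F over PC-3F) and 5 (MEF-2F over PC-2F) were called. With a minimum of 30 UMIs, 2 were lower in PC-3F and 2 in PC-2F than in PC, 0 in MEF-3F and 1 in MEF-2F were higher than in pOPC, and 1 was called in MEF-3F over MEF-2F. At 4-fold, 4 were lower in MEF-3F than in MEF, 2 in PC-3F and 1 in PC-2F than in PC, and 0 (MEF-3F over MEF-2F), 0 (PC-3F over PC-2F), 1 (MEF over PC), 0 (MEF-3F over PC-3F) and 1 (MEF-2F over PC-2F) were called. Without cells of high UMI count, 2 were higher in MEF-3F than in pOPC and 1 was called in MEF-3F over MEF-2F. With the first block only (39 PC cells and 40 MEF-3F cells), 1 was lower in PC-3F and 2 in PC-2F than in PC, 0 in MEF-3F and 4 in PC were higher than in pOPC, and 1 was called in MEF-3F over MEF-2F. The second block only moved no count by more than 1.5 times, but put Foxc1 at 1.05 (log2, MEF-2F over MEF).

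Thinned to 500 UMIs, any of the 8 genes was seen in 6.83% of MEF-3F, 34.4% of MEF, 19.7% of PC-3F, 15.1% of PC-2F and 26.2% of PC cells. With no thinning it was seen in 29.2% (MEF-3F), 37.8% (MEF-2F), 81.7% (MEF), 66.0% (PC-3F), 78.2% (PC-2F) and 81.7% (PC). Clusters were identical at Leiden resolution 0.5. The cause of these moves was not tested, beyond what each setting removes.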
